A study of Rattus norvegicus with 4 samples.

Results

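The Id factors and the feedback genes of BMP and TGF-beta signalling were examined in TSPCs, the stem/progenitor cells of rat tendon, after inhibition of ERK signalling. The 10 genes were Id1, Id2, Id3, Id4, Smad6, Smad7, Smad9, Bambi, Pmepa1 and Skil, taken by symbol from a table of 32623 gene identifiers. Each symbol had 1 row, and all 10 were among the 14023 genes with enough counts to be tested. Gene expression had been measured by RNA sequencing in 4 libraries, 2 from TSPCs treated with U0126 and 2 from TSPCs treated with DMSO, the solvent control. U0126 is a small-molecule inhibitor of the MEK kinases, which phosphorylate and activate ERK. The labels give tendon as the tissue and call the libraries of a group bioreplicates 1 and 2. They give no strain, animal, dose or exposure time, and do not say whether a bioreplicate is a separate animal or culture. The p-values therefore measure only the spread between these libraries.

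BMP ligands act through receptor kinases that phosphorylate Smad1, Smad5 and Smad9, and TGF-beta and activin ligands act through Smad2 and Smad3. Both sets of receptor Smads join Smad4 and bind DNA. Id proteins carry a helix-loop-helix but no DNA-binding region, so they hold E proteins and other helix-loop-helix factors away from DNA. The Id genes are classical BMP targets. Smad6, Smad7, Bambi, Pmepa1 and Skil are induced by BMP or TGF-beta signalling and dampen it. ERK meets this pathway at several points, among them phosphorylation of the Smad linker region.

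The promoters of 3 genes are shown: Id1, the usual readout of BMP signalling, and Id3, the most abundant Id gene, both of which fell with U0126, and Pmepa1, which rose most. Each window runs from 250 bases before to 50 bases after the annotated transcription start, 5′ to 3′ on the gene's strand, in RefSeq sequence of build GRCr8. Capitals mark matches on either strand to GGCGCC, a GC-rich element bound by BMP-activated Smads, to GTCTG, a short Smad3 and Smad4 site, or to CCGGAA, an ETS core. The windows are chr3:161671314-161671613 (plus strand) for Id1, chr5:153656041-153656340 (plus strand) for Id3 and chr3:182478600-182478899 (minus strand) for Pmepa1.
Id1: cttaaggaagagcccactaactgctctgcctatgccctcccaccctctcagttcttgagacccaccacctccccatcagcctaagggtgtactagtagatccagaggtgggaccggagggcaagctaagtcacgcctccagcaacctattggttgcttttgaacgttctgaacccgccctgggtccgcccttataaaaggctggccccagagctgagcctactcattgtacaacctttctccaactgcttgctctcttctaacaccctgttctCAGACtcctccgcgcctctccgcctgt
Id3: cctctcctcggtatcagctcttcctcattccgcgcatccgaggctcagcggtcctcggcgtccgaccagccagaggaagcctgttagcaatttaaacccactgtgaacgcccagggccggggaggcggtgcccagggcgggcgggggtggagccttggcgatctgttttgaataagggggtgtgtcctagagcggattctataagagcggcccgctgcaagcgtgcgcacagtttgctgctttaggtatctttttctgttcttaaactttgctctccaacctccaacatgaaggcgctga
Pmepa1: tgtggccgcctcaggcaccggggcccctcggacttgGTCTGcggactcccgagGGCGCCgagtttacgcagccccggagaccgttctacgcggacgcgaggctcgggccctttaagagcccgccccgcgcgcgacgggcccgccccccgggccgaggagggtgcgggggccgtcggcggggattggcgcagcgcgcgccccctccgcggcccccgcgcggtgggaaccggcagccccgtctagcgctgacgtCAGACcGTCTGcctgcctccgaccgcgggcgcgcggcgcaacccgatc
The Pmepa1 window held 3 matches to GTCTG. The pair at bases 3 to 7 and 9 to 13 after the start lay on opposite strands and pointed away from each other, with 1 base between them. The third lay 214 to 210 bases before the start. The same window held 1 match to GGCGCC. The Id1 window held 1 match to GTCTG, and none of the 3 motifs matched in the Id3 window, which says only that these letters are absent there. RefSeq windows were matched for 9 of the 10 genes, all but Smad6. GGCGCC matched in 6 of the 9 windows, against 11% of all 33469 windows of this length. GTCTG matched in 4 of the 9, against 50.1% of all, and CCGGAA in 1, against 15%. GCGTGGG, an EGR core, matched in 0 of the 9 and in 4.33% of all. The helix-loop-helix site CANNTG matched in 4 of the 9 and in 72.1% of all. The 9 windows were rich in GC, from 55.7% to 78%, against a median of 51.7% over all windows. The part of base composition in these matches was not tested.

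Total counts were 38671289 and 36888913 in the U0126 libraries and 38890310 and 42785190 in the control libraries. Mitochondrially encoded genes took 5.64% and 4.82% of counts with U0126, against 3.48% and 2.98% in control cells. Of 14 tested ERK output genes, 10 fell with U0126 and 4 did not pass, and Dusp5, Etv1 and Etv4 had the smallest adjusted p, at 5.03-fold, 5.09-fold and 3.97-fold lower. Dusp6, an ERK phosphatase and standard readout of the pathway, was at 13.7 and 11.1 TPM with U0126 and at 23.7 and 24.8 TPM in control cells. Egr1, an immediate early factor, was at 32.1 and 58.9 TPM with U0126 and at 82.2 and 94.9 TPM in control cells. The 10 ERK output genes that fell became 5 without control replicate 1, and Egr1 no longer passed without control replicate 1 (edgeR adjusted p = 0.131), without control replicate 2 (0.21) and under DESeq2 (adjusted p = 0.124). Of 9 tested tendon markers on a list of 10, 4 rose (Scx, Dcn, Bgn and Fmod), 2 fell (Tnc and Egr1) and 3 did not pass, with a median log2 fold change of 0.74. The risers numbered 2 without control replicate 2, and the fallers 1 without control replicate 1 and 1 without control replicate 2. The collagen chain gene Col1a1 averaged 6620 TPM with U0126 and 6967 TPM in control cells. Tnmd, a marker of mature tendon cells, averaged 0.0337 TPM with U0126 and 0.109 TPM in control cells. It had only 2 and 0 counts with U0126 and 2 and 5 counts in control cells, too few to be tested. Of 9 endothelial markers in the table, Cdh5, Tie1, Emcn and Cldn5 had 0 counts in every library, and the summed level was 24.1 to 54.1 TPM with U0126 and 4.37 to 5.07 TPM in control cells. Erg made up most of that sum with U0126, at 50.9 and 21.5 TPM. Of 9 macrophage markers, Ptprc, Aif1 and Cd163 had 0 counts in every library, and the sum was 11.4 to 13 TPM with U0126 and 16.9 to 17.3 TPM in control cells. Most of it was Cd14, at 11 and 10.9 TPM with U0126 and 12.8 and 12.8 TPM in control cells. Of 9 skeletal muscle markers, Pax7 and Ckm had 0 counts, 4 of 5 tested fell, and the sum was 99.6 to 152 TPM with U0126 and 243 to 281 TPM in control cells. Nearly all of it was Acta1, at 96.4 and 148 TPM with U0126 and 233 and 273 TPM in control cells. Of 8 mural cell markers, 3 rose and 3 fell of 7 tested, with a sum of 197 to 227 TPM with U0126 and 264 to 322 TPM in control cells. Of 7 Schwann cell markers, Sox10 had 0 counts, 2 of 3 tested rose, and the sum was 30 to 49.3 TPM with U0126 and 9.75 to 15.6 TPM in control cells. Nearly all of it was S100b, at 47.3 and 28.7 TPM with U0126 and 15.1 and 8.83 TPM in control cells. The counts of this paragraph stand beside 8.41% of all tested genes called higher and 11.5% called lower. The part of these markers and of the mitochondrial share in the results on the Id and feedback genes was not tested. In bulk RNA, fewer cells of a type and less RNA per cell cannot be told apart.

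U0126 divided the 10 genes by direction. Id1, Id3, Id4, Smad6 and Smad7 fell, Bambi and Pmepa1 rose, and Id2, Smad9 and Skil did not pass the test (edgeR quasi-likelihood test, Benjamini-Hochberg adjustment over 14023 genes, threshold 0.05). Thus 7 of 10 were called, where 19.9% of all tested genes were called. The 5 that fell stand beside 11.5% of all genes called lower, and the 2 that rose beside 8.41% called higher. The median log2 fold change of the 10 was -0.56, against 0.02 over all tested genes. In 7 of the 10 both U0126 libraries lay below both controls in CPM, in 2 both lay above, and in Skil the groups overlapped. Groups that do not overlap were common in these libraries, with 31.0% of tested genes wholly lower and 31.8% wholly higher, 62.8% in all. Without control replicate 1, 2 genes fell and 1 rose, and without control replicate 2, 3 fell and 1 rose. Without U0126 replicate 1, 7 fell, as Id2 and Smad9 then passed. Over all genes, the number called was 913 and 899 without control replicates 1 and 2 and 4644 without U0126 replicate 2, against 2792 with all libraries.

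**Figure D1:**
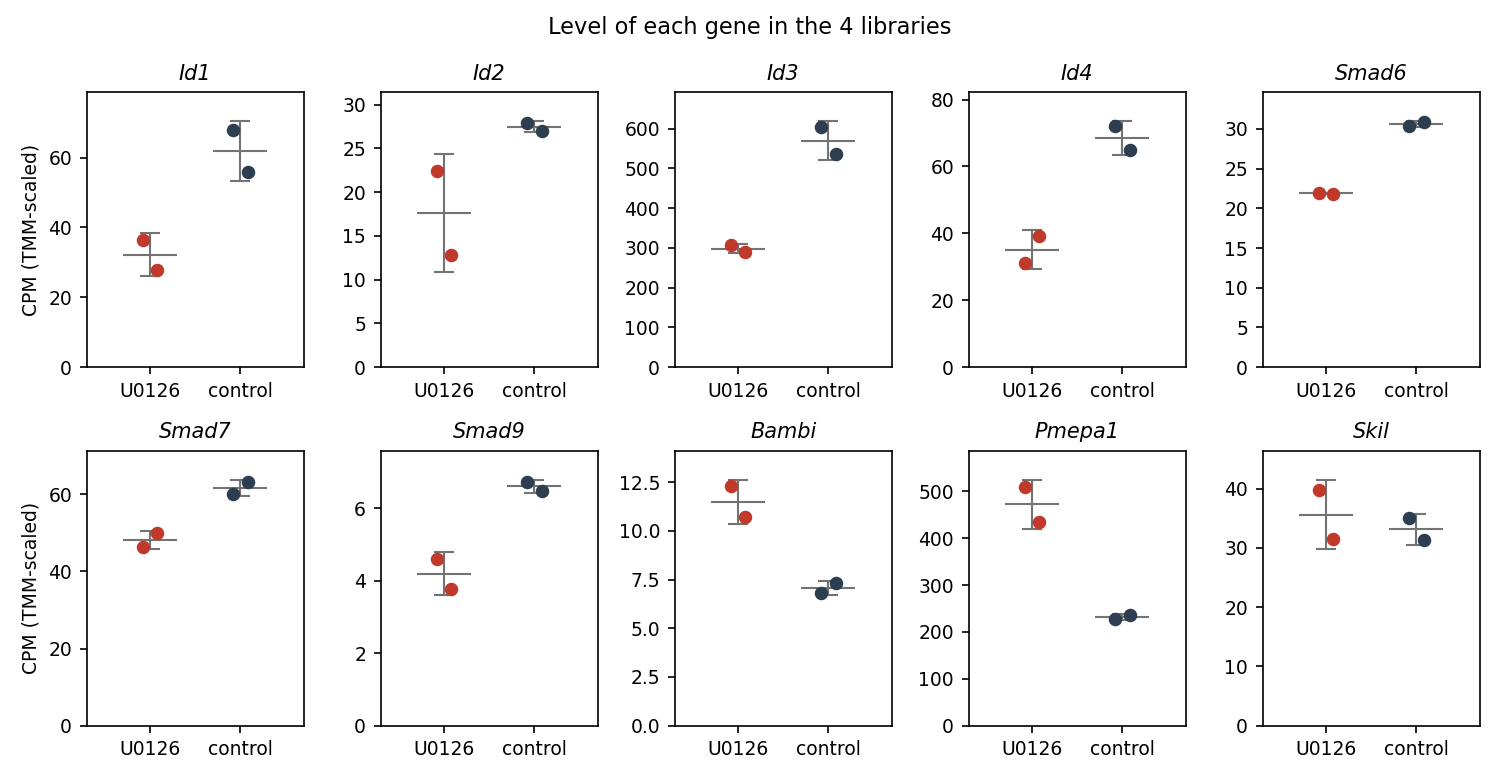
Level of each of the 10 genes in TMM-scaled CPM in the U0126 and control libraries, on linear axes that start at 0. Points are single libraries, long ticks the group means and bars the SD (n = 2 each). The U0126 points lie below both control points for 7 genes and above them for Bambi and Pmepa1, and they overlap the control points for Skil.

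Id3 was the most abundant of the 10 transcripts in TPM in control cells, while with U0126 its level overlapped that of Pmepa1. Of the 4 Id genes, 3 fell to a similar extent. Id3 had 306 and 291 CPM (counts scaled to library size with TMM factors) in the U0126 libraries, against 604 and 536 CPM in the controls. Both U0126 libraries lay well below both controls, and they differed little from each other. The fall was 1.91-fold (log2 fold change -0.93 ± 0.10 SE, edgeR adjusted p = 0.00112). Id3 (chromosome 5, 154489590 to 154491223, rn6, plus strand) encodes an Id protein that in mice acts with Id1 in progenitor proliferation and vessel growth.

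Id1, the Id gene most used as a readout of BMP signalling, had 36.5 and 27.8 CPM with U0126, against 67.8 and 55.8 CPM in control cells. The groups did not overlap, and the libraries within each group were less alike than for Id3. The fall was 1.92-fold (log2 fold change -0.94 ± 0.16 SE, edgeR adjusted p = 0.00723). The Id1 call was lost without control replicate 1 (log2 fold change -0.80, edgeR adjusted p = 0.0706), while over its 11 alternatives the adjusted p went down to 1.25e-06. Id1 lies at chromosome 3, 148215540 to 148216718 (rn6, plus strand).

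Id4, which is best known from neural and mammary progenitors, had 31.1 and 39.2 CPM with U0126 and 72 and 64.9 CPM in control cells. The higher U0126 library was still below the lower control. The fall was 1.95-fold (log2 fold change -0.96 ± 0.13 SE, edgeR adjusted p = 0.0033). The Id3 and Id4 calls held in all 11 alternatives run, with adjusted p of at most 0.0175 and 0.0422.

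Id2 had 22.4 and 12.9 CPM with U0126, against 27.9 and 27 CPM in control cells. The controls were nearly equal, while U0126 replicate 1 lay much nearer to them than U0126 replicate 2 did. Id2 did not pass (log2 fold change -0.64 ± 0.24 SE, edgeR adjusted p = 0.107). Its log2 fold change was -1.09 without U0126 replicate 1, where it passed as lower (edgeR adjusted p = 2.19e-04), and -0.30 without U0126 replicate 2 (edgeR adjusted p = 0.0662). The largest adjusted p over its alternatives was 0.337, without control replicate 1. It also passed as lower under DESeq2 (adjusted p = 0.0419). Whether Id2 changed differently from the other Id genes was not tested. Id2 lies at chromosome 6, 44348501 to 44363915, and Id4 at chromosome 17, 16692557 to 16695126 (rn6, both minus strand).

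Levels of different genes were compared in TPM, which divides by transcript length. The 4 Id genes together stood at 671 and 623 TPM with U0126, against 1329 and 1222 TPM in control cells, a mean of 647 ± 33.8 TPM and 1275 ± 75.2 TPM (SD, n = 2 each). Id3 supplied most of this sum in every library, 77.6% and 80.4% with U0126 and 79.7% and 79.8% in control cells. The share of Id1 was 9.71% and 8.05% with U0126 and 9.39% and 8.72% in control cells. The shares of Id2 were 7.77% and 4.88% with U0126 and 5.05% and 5.50% in control cells, so the 2 U0126 libraries lay on either side of the controls. For Id4 the shares were 4.87% and 6.70% with U0126 and 5.87% and 5.97% in control cells, also on either side. The pool of Id transcripts was thus smaller with U0126, and its makeup overlapped between the groups for all 4 genes.

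**Figure D2:**
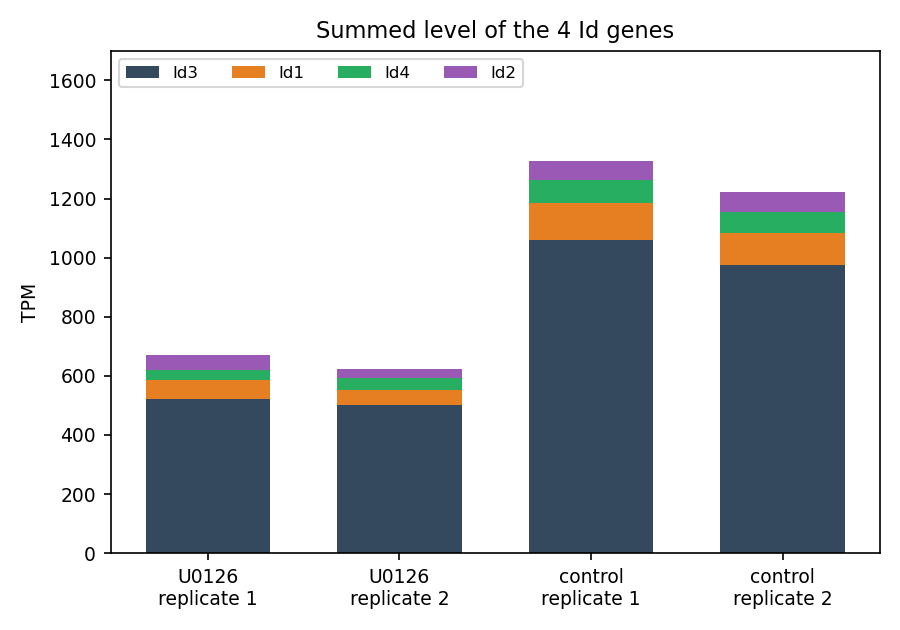
Summed level of Id3, Id1, Id4 and Id2 in TPM in each of the 4 libraries, stacked by gene. The U0126 bars reach 671 and 623 TPM and the control bars 1329 and 1222 TPM, and Id3 forms at least 77.6% of every bar.

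Of the 3 genes of E proteins, the main dimer partners of Id proteins, 1 rose and the others did not pass. Tcf12 was higher with U0126, at 35.6 and 32.4 TPM against 27 and 24 TPM in control cells (log2 fold change 0.47 ± 0.12 SE, edgeR adjusted p = 0.0335). Tcf3 (log2 fold change -0.05 ± 0.10 SE, edgeR adjusted p = 0.789) and Tcf4 (0.24 ± 0.16 SE, edgeR adjusted p = 0.33) did not pass. The summed level of these 3 genes was 91.2 and 94.4 TPM with U0126 and 87.2 and 87.5 TPM in control cells. Id transcripts therefore outnumbered E protein transcripts 7.35 and 6.60 to 1 with U0126, against 15.2 and 14 to 1 in control cells. These are ratios of transcript levels, and protein was not measured. Tcf12 no longer passed with control replicate 1 left out (edgeR adjusted p = 0.109), with control replicate 2 left out (0.312) and, narrowly, with library totals alone (0.0501).

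Other helix-loop-helix factors moved both ways. Of 15 tested on a list of 18 that includes the E proteins, 5 rose, 3 fell and 7 did not pass, with a median log2 fold change of 0.28. Over all tested genes, 8.41% were called higher and 11.5% lower. The tendon factor Scx was at 30.8 and 31.2 TPM with U0126 and at 18.9 and 19 TPM in control cells. The Notch effectors Heyl and Hes1 also rose, Heyl to 3.37 and 2.04 TPM with U0126 against 0.546 and 0.419 TPM in control cells. The myogenic factor Myod1 fell to 0.202 and 0.0569 TPM with U0126, against 1.91 and 1.76 TPM in control cells. Twist2, a mesenchymal repressor, and Bhlhe40, a clock-linked repressor, fell 2.20-fold and 1.43-fold. Twist1 did not pass (log2 fold change 0.28 ± 0.12 SE). The risers numbered 1 without control replicate 1 and 2 without control replicate 2, and the fallers 1 and 2. Without control replicate 1 the calls of Scx (edgeR adjusted p = 0.0715), Hes1 (0.0708), Twist2 (0.0773) and Bhlhe40 (0.193) were lost, and without control replicate 2 those of Scx (0.0893) and Bhlhe40 (0.194).

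The inhibitory Smads fell, with smaller estimated falls than Id1, Id3 and Id4, a difference that was not tested. Smad6, which mainly blocks BMP receptor signalling, had 21.9 and 21.8 CPM with U0126, against 30.3 and 30.8 CPM in control cells. The libraries within a group were almost equal, and the groups lay clearly apart. The fall was 1.40-fold (log2 fold change -0.48 ± 0.10 SE, edgeR adjusted p = 0.0186). Smad7, which blocks TGF-beta and BMP receptors and recruits ubiquitin ligases to them, had 46.4 and 49.8 CPM with U0126, against 60.1 and 63.1 CPM in control cells. The fall was 1.28-fold (log2 fold change -0.36 ± 0.09 SE, edgeR adjusted p = 0.0388). Neither call held without control replicate 1 (edgeR adjusted p = 0.168 for Smad6 and 0.216 for Smad7) or without control replicate 2 (0.204 and 0.326), although the log2 fold changes stayed between -0.50 and -0.47 for Smad6 and between -0.42 and -0.31 for Smad7. With replicate number as a block, Smad7 missed the threshold (edgeR adjusted p = 0.0593). Smad6 lies at chromosome 8, 68898296 to 68966108 (minus strand), and Smad7 at chromosome 18, 71395830 to 71424157 (plus strand, rn6).

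Smad9, the least abundant of the 10 and a receptor Smad of the BMP branch with weak activity of its own, had 4.61 and 3.78 CPM with U0126, against 6.73 and 6.48 CPM in control cells. The groups did not overlap, but Smad9 narrowly missed the threshold (log2 fold change -0.65 ± 0.19 SE, edgeR adjusted p = 0.0502). It passed as lower in 3 of 11 alternatives, with RLE factors (edgeR adjusted p = 0.0475), with library totals alone (0.0388) and without U0126 replicate 1 (0.0153), and the largest adjusted p was 0.283. The other BMP receptor Smads, Smad1 (log2 fold change -0.28 ± 0.10 SE, edgeR adjusted p = 0.0951) and Smad5 (-0.03 ± 0.10 SE, 0.843), and the shared partner Smad4 (0.14 ± 0.09 SE, 0.317) did not pass. With U0126 replicate 1 left out, Smad1 was called lower (edgeR adjusted p = 0.0371). Smad2 and Smad3, the receptor Smads of TGF-beta and activin, were named after their values were seen. Smad2 was called lower (log2 fold change -0.38 ± 0.09 SE, edgeR adjusted p = 0.0295), and Smad3 did not pass (-0.05 ± 0.12 SE, 0.799). The limits given below for the list of Smads and regulators also apply to Smad2. Smad9 lies at chromosome 2, 144191846 to 144212138 (rn6, plus strand).

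Pmepa1 and Bambi, which encode membrane proteins, went the other way. Pmepa1, a membrane protein that holds receptor Smads away from the TGF-beta receptor, had 509 and 435 CPM with U0126, against 228 and 237 CPM in control cells. Both U0126 libraries lay far above both controls. The rise was 2.03-fold (log2 fold change 1.02 ± 0.11 SE, edgeR adjusted p = 0.00101), and it was called in all 11 alternatives, with an adjusted p of at most 0.0192. Bambi, a pseudoreceptor that lacks a kinase domain and inhibits BMP, activin and TGF-beta receptors, had 12.3 and 10.7 CPM with U0126, against 6.83 and 7.33 CPM in control cells. The groups did not overlap, and the rise was 1.62-fold (log2 fold change 0.70 ± 0.15 SE, edgeR adjusted p = 0.0204). The Bambi call was lost without control replicate 1 (edgeR adjusted p = 0.19) or control replicate 2 (0.142), with log2 fold changes of 0.65 and 0.75. Pmepa1 lies at chromosome 3, 171294856 to 171342646, and Bambi at chromosome 17, 56905112 to 56909992 (rn6, both minus strand).

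Skil, which encodes the nuclear Smad corepressor SnoN, had 39.8 and 31.5 CPM with U0126, against 35 and 31.3 CPM in control cells. The groups overlapped, and Skil did not pass (log2 fold change 0.10 ± 0.14 SE, edgeR adjusted p = 0.642). It passed in none of its 11 alternatives, where the log2 fold change ran between -0.07 and 0.25 and the smallest adjusted p was 0.106. Its relative Ski did not pass either (log2 fold change 0.31 ± 0.09 SE, edgeR adjusted p = 0.0603), but passed as higher under the stricter filter (0.0497) and without U0126 replicate 1 (0.0121). Ski was named after its values were seen. Skil lies at chromosome 2, 115866701 to 115891097 (rn6, minus strand).

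**Figure D3:**
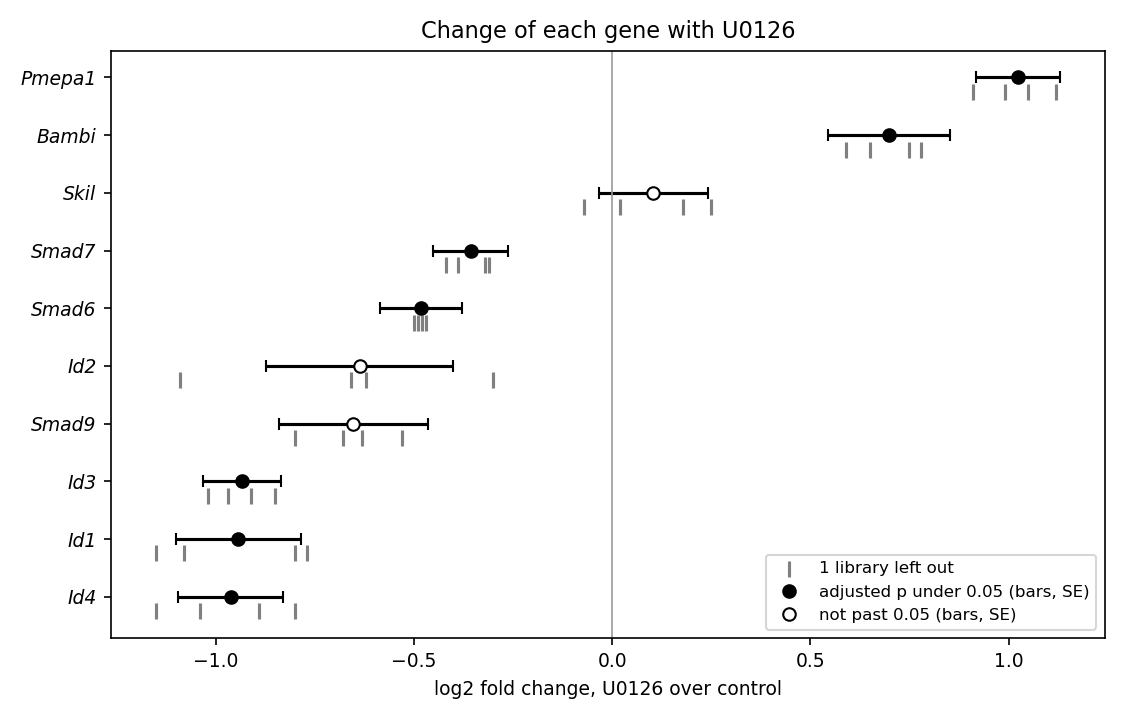
Log2 fold change of U0126 over control for the 10 genes, with SE bars. Filled circles passed an edgeR adjusted p of 0.05 and open circles did not, and grey ticks are the same value with 1 library left out. Pmepa1 at 1.02 and Bambi at 0.70 lie right of 0, and the Id genes, Smad6, Smad7 and Smad9 lie left of it with every library left out in turn.

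By mean level, Id3, Pmepa1 and Id1 came first in both groups, while Id2 and Id4, and Skil and Smad7, changed places. With U0126 the order in TPM was Id3 (511 ± 14.2), Pmepa1 (490 ± 50.1), Id1 (57.7 ± 10.6), Id2 (41.3 ± 15.3), Id4 (37.2 ± 6.39), Smad6 (27.5 ± 0.173), Skil (24.3 ± 3.76), Smad7 (19.3 ± 1.13), Bambi (13.5 ± 1.19) and Smad9 (1.27 ± 0.164; SD, n = 2). In control cells it was Id3 (1017 ± 58.9), Pmepa1 (251.7 ± 13.5), Id1 (116 ± 12.9), Id4 (75.5 ± 3.56), Id2 (67.2 ± 0.114), Smad6 (40.1 ± 1.53), Smad7 (25.7 ± 1.55), Skil (23.6 ± 1.25), Bambi (8.67 ± 0.668) and Smad9 (2.09 ± 0.00501; SD, n = 2). With U0126, the libraries of Id3 and Pmepa1 overlapped, and so did those of Id1 with Id2 and of Id2 with Id4. In control cells no neighbours in the order overlapped. The level of Pmepa1 was 1.01 and 0.908 times that of Id3 with U0126, against 0.229 and 0.268 times in control cells.

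The 5 genes with a symbol whose pattern over the 4 libraries was nearest to that of Pmepa1, the called gene with the largest change, were Rnf122, Wif1, Fzd2, Cpne8 and Slc30a3. Nearness was the Euclidean distance between gene-centred log2 CPM values (0.5 CPM added), and it ran between 0.0497 for Rnf122 and 0.0777 for Slc30a3. Fzd2, a Wnt receptor, had 189 and 162 CPM with U0126 (log2 fold change 0.99, edgeR adjusted p = 0.00111). Wif1, a secreted Wnt inhibitor, had 3.98 and 3.37 CPM with U0126 (log2 fold change 1.28, edgeR adjusted p = 0.0127). Slc30a3 had a larger log2 fold change than Pmepa1, at 3.02, but was under 1 CPM in every library, where the added 0.5 CPM shrinks differences.

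Several ligands of the pathway changed with U0126. Of 14 tested ligand genes on a list of 19, 5 rose, 3 fell and 6 did not pass, with a median log2 fold change of 0.03. These counts, and those of the lists that follow, stand beside 8.41% of all tested genes called higher and 11.5% called lower. Gdf6, a BMP-type ligand known in tendon and joint formation, was at 20.6 and 17.7 TPM with U0126 and at 2.24 and 1.98 TPM in control cells. Inhbb, an activin chain, rose 5.21-fold, and Gdf10, a divergent family member, was at 19.1 and 8.02 TPM with U0126 and at 0.476 and 0.369 TPM in control cells. Bmp6, named after its values were seen, was at 19.9 and 26.6 TPM with U0126 and at 7.43 and 7.65 TPM in control cells. Tgfb3 fell 2.36-fold, to 378 and 427 TPM with U0126 against 916 and 1065 TPM in control cells. Inhba, the other activin chain, fell 2.05-fold, and Gdf11 1.39-fold. Bmp4 (log2 fold change -0.09 ± 0.09 SE, edgeR adjusted p = 0.541) and Tgfb1 (-0.04 ± 0.09 SE, 0.789) did not pass. Gdf11 no longer passed with control replicate 1 left out (edgeR adjusted p = 0.248) or with control replicate 2 left out (0.176).

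Secreted antagonists, listed together with the membrane-bound Crim1, also divided. Of 13 tested on a list of 16, 2 rose, 4 fell and 7 did not pass, with a median log2 fold change of 0.25. Crim1, a membrane-bound BMP binder, fell 2.01-fold to 67.2 and 85.6 TPM with U0126, against 143 and 177 TPM in control cells. Bmper fell 1.76-fold. Chrdl2, a chordin relative, had 0 counts with U0126 and 29 and 44 counts in control cells, at least 21.7-fold lower when 3 counts are allowed over the U0126 group. Grem1, the most abundant of those that fell and named after its values were seen, was at 1006 and 1332 TPM with U0126 and at 2046 and 1937 TPM in control cells. Fst and Fstl3, which trap activin, rose 1.64-fold and 1.36-fold. Neither rise was called without control replicate 1 (edgeR adjusted p = 0.12 for Fst and 0.182 for Fstl3) or control replicate 2 (0.157 and 0.125). The Grem1 call was lost without control replicate 1 (edgeR adjusted p = 0.0865) and control replicate 2 (0.0505), and without control replicate 2 so were those of Bmper (0.0576) and Chrdl2 (0.0589). Without U0126 replicate 2, 4 antagonists rose.

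Of the tested receptors, 7.14% were called higher and 7.14% lower, against 8.41% and 11.5% of all tested genes. Of 14 tested on a list of 15, Rgma, a BMP co-receptor, rose 1.45-fold, Acvr1, a type I receptor, fell 1.27-fold, and 12 did not pass. The median log2 fold change was 0.09. Neither call held without control replicate 1 (edgeR adjusted p = 0.225 for Rgma and 0.296 for Acvr1) or control replicate 2 (0.155 and 0.282), and Acvr1 also missed the threshold with no filter on low counts (0.051) and with the replicate block (0.0728). Without U0126 replicate 2, 3 receptors rose, and without U0126 replicate 1, 2 fell.

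Of 20 tested Smads and Smad regulators, 4 rose, 4 fell and 12 did not pass, with a median log2 fold change of -0.03. Ldlrad4, a membrane relative of Pmepa1 that also binds receptor Smads, rose 1.61-fold to 69.7 and 70.8 TPM with U0126, against 43.7 and 48.1 TPM in control cells. Runx1 rose 1.40-fold and Zfyve9, which anchors Smads for the receptor, 1.39-fold. The bone factor Runx2 fell 2.20-fold, the ubiquitin ligase Smurf1, a partner of the inhibitory Smads, 1.43-fold, and the corepressor Tgif1 1.60-fold. Without control replicate 1 none of these 6 was called, with edgeR adjusted p between 0.0552 for Ldlrad4 and 0.299 for Zfyve9. Without control replicate 2 Ldlrad4 was the 1 riser left of the 20, and no gene of the list passed as lower. Zfyve9 also lost its call with library totals alone (edgeR adjusted p = 0.0575), no filter (0.051) and the replicate block (0.0614). With library totals alone or the block, 2 genes of the list rose, and without U0126 replicate 2, 7 fell.

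Other known targets of TGF-beta or BMP went both ways as well. Of 18 tested on a list of 20, 4 rose, 6 fell and 8 did not pass, with a median log2 fold change of -0.35. The BMP-induced homeobox genes Msx2 and Msx1 fell 7.29-fold and 2.16-fold, Msx2 to 0.664 and 0.972 TPM with U0126 against 7 and 5.71 TPM in control cells. Atoh8, a BMP target named after its values were seen, was at 5.72 and 4.18 TPM with U0126 and at 12.6 and 10.2 TPM in control cells. Klf10, picked out with its result already known, was lower too (log2 fold change -0.96 ± 0.19 SE, edgeR adjusted p = 0.0147). Its levels were 2.73 and 2.17 TPM with U0126, against 3.98 and 4.74 TPM in control cells. Snai1, a TGF-beta-induced repressor, rose 1.67-fold to 144 and 134 TPM with U0126, against 89.6 and 83 TPM in control cells. Cdkn1a and Tsc22d1 rose 1.63-fold and 1.42-fold. Whether targets of BMP and of TGF-beta differed in direction was not tested. The list held 2 risers and 3 fallers without control replicate 1 and 4 fallers without control replicate 2. Tsc22d1 and Atoh8 lost their calls without control replicate 1, and Tsc22d1, Snai1 and Cdkn1a without control replicate 2. These fits are not given for the other called genes of the list, Klf10 among them.

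**Figure D4:**
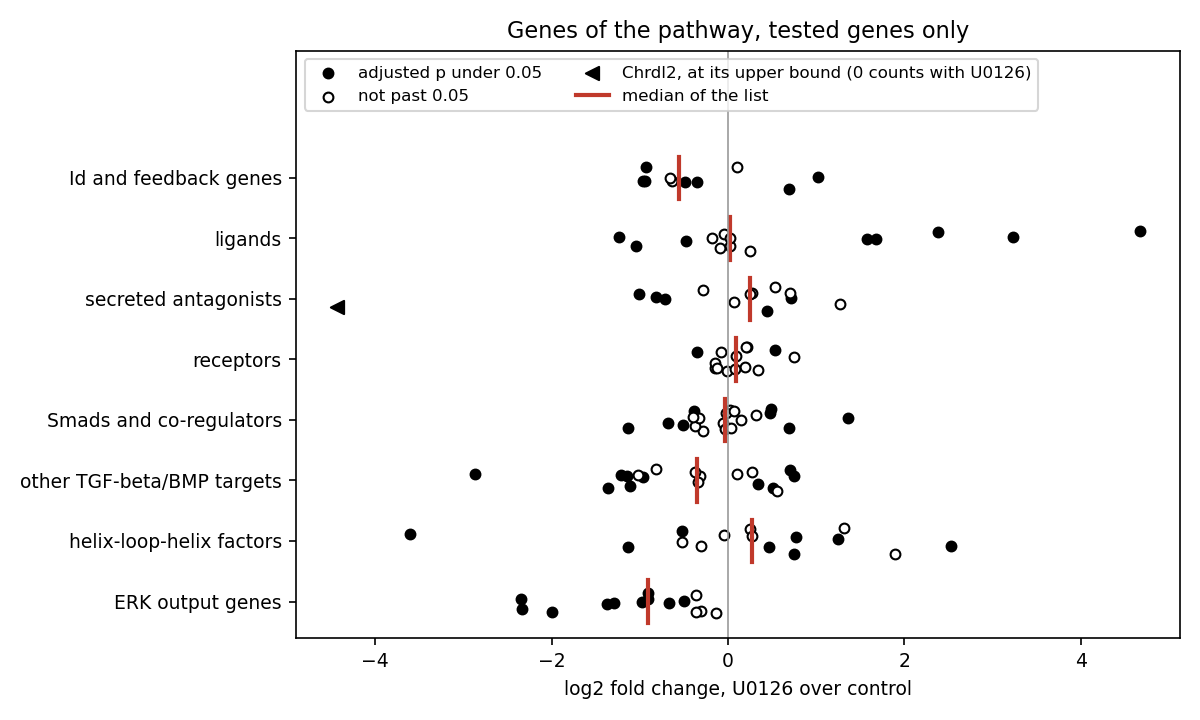
Log2 fold change of U0126 over control for each tested gene of 8 lists, 1 list a row, spread vertically at random for legibility. Filled circles passed an edgeR adjusted p of 0.05, open circles did not, and red bars are list medians. The triangle is Chrdl2, which had 0 counts with U0126 and is drawn at its bound. Medians are -0.56 for the Id and feedback genes and -0.90 for ERK output genes, and between -0.35 and 0.28 for the other lists.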

How the data were processed

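RNA from 2 U0126 and 2 control (DMSO) TSPC libraries was taken with Trizol and made into Illumina libraries, per the labels' protocols. Per the submitters' processing notes, the genome build was rn6. For the aligner, counter, strand setting and annotation the sources used here give nothing. The authors deposited 1 table, holding for each gene and library a whole-number count, TPM and FPKM. The deposited counts were not normalized and totalled 36888913 to 42785190. The deposited TPM values, scaled per length by the authors, were used to compare levels between genes, and the deposited FPKM values only as an alternative for Id shares. Columns were matched to samples by letter and replicate number, and 0 were left unmatched. No other row of the table overlapped the position of the 10 genes. No strand setting being known, reads of unannotated antisense transcripts would not be separated.

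Genes passing edgeR's filterByExpr (minimum count 10, minimum total 15) were fitted with TMM scaling and glmQLFit, and tested with glmQLFTest (R 4.3.3, edgeR 4.0.16), two-sided, without a replicate block. Log2 fold changes carry edgeR's default prior count, and SE is the absolute log2 fold change over the square root of F. Alternatives were RLE factors, library totals, no filter, a stricter filter (50 counts in 2 libraries), DESeq2 1.42.0, limma-voom (limma 3.58.1), the replicate block, and leaving out each library. The fit was tested on simulated counts. The genes and lists were chosen with earlier results of these data known. Of each list, up to 3 called genes in each direction with the smallest adjusted p were named, with a few fixed by name; 1 gene that this rule names is not reported here. Protein sequences were not used here. A library with 0 counts allows up to 0.0689 to 0.0829 CPM (3 counts), which covers counting error only.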

Additional observations from a re-analysis of the deposited data

How the results depend on the processing

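None of the 7 called genes changed direction in any of the 11 alternatives. Of 70 values for the 10 genes under alternatives that kept every library, 66 stayed on the same side of the threshold, 1 lost its call (Smad7 with the replicate block, log2 fold change -0.36) and 3 gained one (Id2 with DESeq2, -0.64, and Smad9 with RLE factors, -0.66, and library totals, -0.71). Every call lost by leaving out 1 library was lost without a control. Id1 lost its call without control replicate 1. Smad6, Smad7 and Bambi lost theirs without control replicate 1 and also without control replicate 2. Id2 and Smad9 gained a call without U0126 replicate 1. With 1 library left out in turn, log2 fold changes ran between -1.15 and -0.77 for Id1, -1.09 and -0.30 for Id2, -1.02 and -0.85 for Id3, and -1.15 and -0.80 for Id4. They ran between -0.50 and -0.47 for Smad6, -0.42 and -0.31 for Smad7, -0.80 and -0.53 for Smad9, and 0.59 and 0.78 for Bambi. The counts ran between 1 and 2 higher and 2 and 7 lower of the 10, and between 899 and 4644 over all genes (295 and 2138 higher, 604 and 2506 lower). By list they ran between 1 and 7 higher and 1 and 3 lower for helix-loop-helix factors, 0 and 4 higher and 1 and 5 lower for antagonists, 0 and 3 higher and 0 and 2 lower for receptors, 0 and 5 higher and 0 and 7 lower for Smads and regulators, 0 and 4 higher and 3 and 6 lower for other targets, 2 and 6 higher and 1 and 2 lower for tendon markers, and 5 and 12 lower for ERK output genes. A fit without a control rests on the spread between the U0126 libraries, and the lone control is assumed to vary alike. With every library kept, list counts moved for antagonists under DESeq2 (4 higher), tendon markers under DESeq2 (1 lower), receptors with no filter or the replicate block (0 lower) and Smads and regulators with library totals or the block (2 higher); the cause was not tested. Replicate numbers do not show pairing: the difference between replicates 1 and 2 correlated at -0.0461 between the groups over 14023 genes, and no other call of the 10 genes changed with the block. Id shares in FPKM were equal to those in TPM to 3 digits in every library. TPM and FPKM differ by a constant factor within a library, so this could not come out otherwise and is no check. The 2 libraries a group limit precision, as do the low counts of Smad9 (137 to 282 a library) and Bambi (271 to 466).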
